A study of Mus musculus with 9 samples.

Results

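The genes of major histocompatibility complex (MHC) class I and of its peptide loading machinery were followed in whole lung of mice of 3 inbred strains kept at low or at ambient pressure. They comprise the heavy chains H2-K1, H2-D1, H2-M3 and H2-T23, the light chain B2m, the peptide transporter subunits Tap1 and Tap2, the loading chaperones Tapbp and Calr, and the transactivator Nlrc5. Members were all probe sets annotated with 1 of these 10 gene symbols alone, which gave 27 probe sets, out of 45037 without the controls, and covered 9 of the 10 genes. In all, 18193 genes had a probe set of their own. H2-T23 has no such probe set, since both probe sets that list it also list other genes, and no value is given for it. H2-D1 has 9 probe sets, H2-K1 and Tap1 have 4 each, Calr has 3, B2m and Tapbp have 2 each, and H2-M3, Tap2 and Nlrc5 have 1 each.

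Total RNA of the right lung was hybridised to 9 one-colour arrays. The strains were BL6, labelled C57/BL6, then FVB/N, and SV129. For each strain 2 arrays came from hypoxic lung, after 4 weeks of hypobaric hypoxia at 50 kPa, and 1 from normoxic lung, after 4 weeks at 85 kPa, the pressure at Denver's altitude. No age, sex, engineered allele or MHC haplotype is stated for any group. Whether arrays of a group hold RNA of different animals is not stated, so the p-values reflect only the spread among these arrays, possibly a technical one, and the number of arrays limits the precision. In homogenate, fewer cells of a type and less RNA per cell cannot be told apart.

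Class I molecules present peptides from inside the cell to CD8 T cells and to natural killer cells. A heavy chain pairs with beta-2 microglobulin (B2m) in the endoplasmic reticulum, where calreticulin (Calr) and tapasin (Tapbp) hold it beside the transporter TAP, a dimer of Tap1 and Tap2 that pumps peptides in from the cytosol. H2-K1 and H2-D1 are classical, highly polymorphic heavy chains found on nearly all nucleated cells, and H2-M3 is a non-classical one that presents N-formylated peptides. Nlrc5 is the transactivator that acts on promoters of class I genes together with factors bound to a conserved group of sequence boxes, and interferons raise transcription of the whole group. C57BL/6 and 129 strains are generally listed with b-type MHC haplotypes and FVB/N with the q haplotype. By this listing, alleles of the classical genes differ between FVB/N and the others.

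The promoter stretches of the 4 members that share a spaced pair of boxes are shown because they hold the letters through which class I genes are known to be regulated as a group. The sequences are from RefSeq on GRCm38.p6, read 5′ to 3′ on the strand of the gene. Capitals mark, from left to right, a match to the interferon-response-like letters TTTCNNTT on either strand, the letters TGACG of the X2 box, and the letters ATTGG of the Y box, which follow TGACG after a gap of 20 bases.
H2-K1, chr17:34000359-34000437, minus strand: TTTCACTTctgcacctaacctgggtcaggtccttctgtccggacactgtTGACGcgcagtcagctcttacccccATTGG
H2-D1, chr17:35262944-35263022, plus strand: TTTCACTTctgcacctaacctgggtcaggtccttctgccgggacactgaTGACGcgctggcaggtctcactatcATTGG
H2-M3, chr17:37270133-37270217, plus strand: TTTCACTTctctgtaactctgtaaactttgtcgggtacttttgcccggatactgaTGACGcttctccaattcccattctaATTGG
B2m, chr2:122147550-122147638, plus strand: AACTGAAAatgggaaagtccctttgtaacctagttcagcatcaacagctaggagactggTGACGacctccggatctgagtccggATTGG
The stretches of H2-K1 and H2-D1 are the same length, 79 bases, and in B2m the first match lies on the other strand.

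Promoter windows of 300 bases were found for 8 of the 10 members, and both strands were searched. The spaced pair TGACG, 20 bases, ATTGG was present in 4 of these 8 and in 31 of 32851 windows of all genes, which is 0.0944%. TGACG alone was present in 5 of 8 members and in 20.8% of all windows, ATTGG in 8 of 8 and 37.4%, and TTTCNNTT in 6 of 8 and 23.9%. In the windows of Tap1, Tapbp, Calr and H2-T23 the spaced pair was not found, which says only that these letters are not in these windows. The sequences are those of the reference strain and do not show the alleles of FVB/N or SV129.

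Hypoxic BL6 array 2 and the normoxic FVB/N array held kidney transcripts, which touches several results. Over 13 kidney markers the mean log2 level reached 11.72 on the former and 12.71 on the latter, against 6.14 to 6.57 for the other 7, where 5 to 8 of the 13 markers had signals below 50. The normoxic FVB/N array also carried brown fat and fast muscle transcripts, at a mean log2 level of 9.79 over 9 markers against 6.17 to 6.62 elsewhere. Lung epithelial markers were at 13.87 to 14.45 on all 9 arrays, and none of the 8 was below a signal of 50. All 14 spike-in control probe sets for bioB, bioC and bioD separated hypoxic from normoxic arrays without overlap, so array handling and condition cannot be told apart.

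Signals are deposited on a linear scale. Levels given below on the log2 scale are log2(signal + 16) after quantile normalization, differences are fitted log2 differences ± SE, and adjusted p-values come from limma with Benjamini-Hochberg adjustment over the 27022 probe sets that remained after the dimmest 40% were left out. Of the 27 member probe sets 21 remained, and the 6 left out were 4 dim H2-D1 sets and 2 dim Tap1 sets. These 6 had signals of 84.8 at most. Each gene is led by its brightest probe set, and levels of different probe sets are not comparable with each other.

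**Figure D1:**
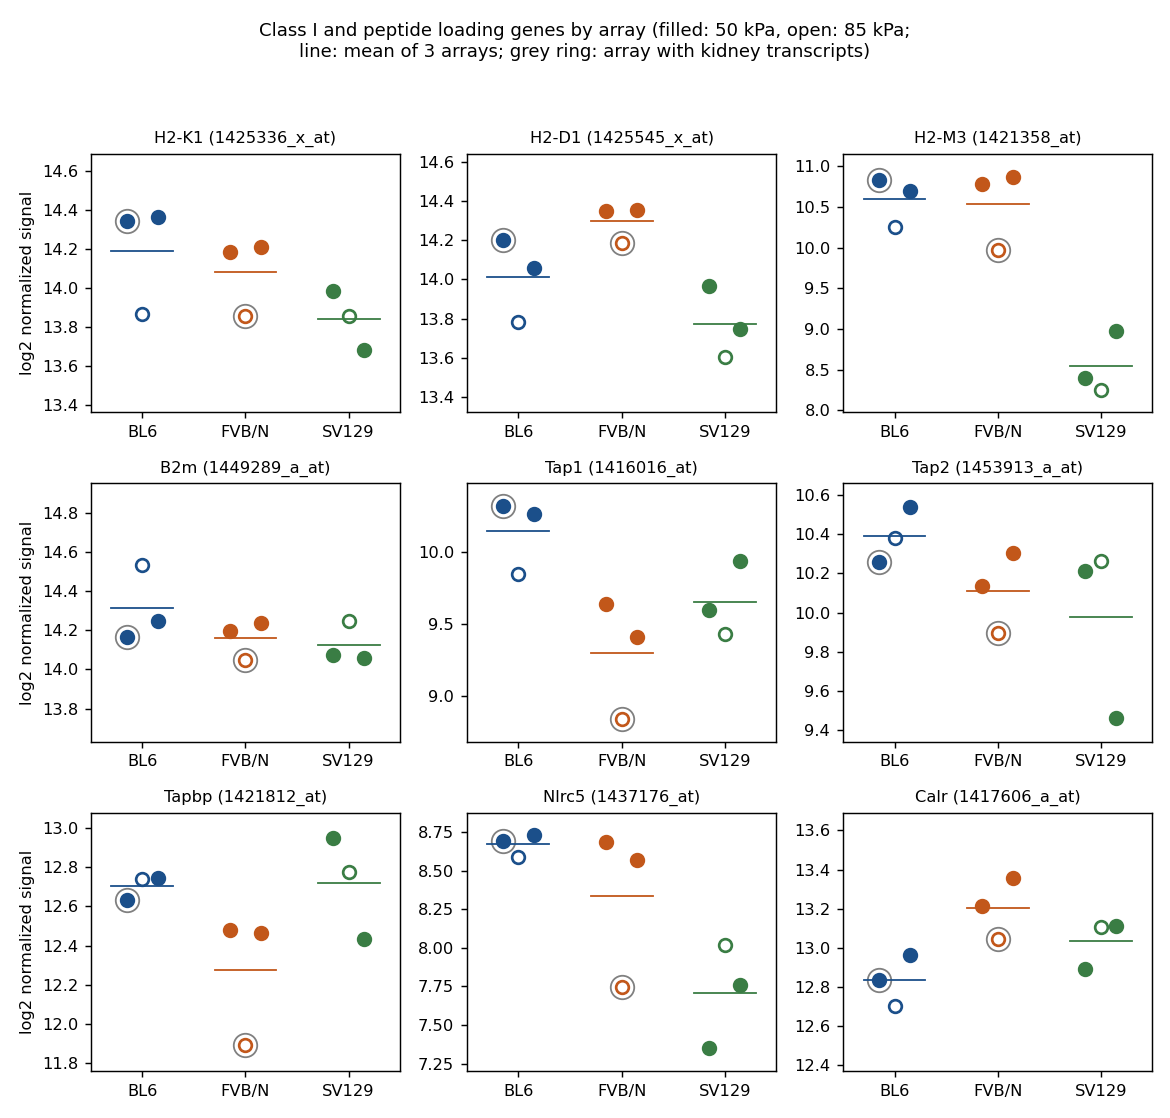
Log2 normalized signal of the leading probe set of each of the 9 genes on the 9 arrays, by strain, with filled points for 50 kPa, open points for 85 kPa, a line at the mean of the 3 arrays of a strain and a grey ring round the arrays with kidney transcripts. H2-M3 lies at a mean of 8.54 in SV129 against 10.59 in BL6 and 10.54 in FVB/N, and Tap1 is lowest in FVB/N.

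The first question was how the heavy chains differed between strains at equal pressure. H2-M3 showed the plainest difference of all members: its signal was about 4 times lower in SV129 than in either other strain. Its deposited signal was 1785 and 1655 on the hypoxic and 1208 on the normoxic BL6 array. In FVB/N the hypoxic arrays read 1786 and 1885 and the normoxic one 955. In SV129 the hypoxic arrays read 322 and 476 and the normoxic one 295. All SV129 arrays thus lay below all arrays of the other strains.

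The log2 level of H2-M3 was 10.59 ± 0.30 (SD, n = 3) in BL6, 10.54 ± 0.50 (SD, n = 3) in FVB/N and 8.54 ± 0.39 (SD, n = 3) in SV129. BL6 exceeded SV129 by 2.05 ± 0.192, or 4.15-fold (limma adjusted p = 0.00103), and FVB/N exceeded SV129 by 2.00 ± 0.192, or 4.00-fold (limma adjusted p = 0.000882). Both differences passed the threshold of 0.05 in 22 of 22 alternative settings, with ranges of 1.86 to 2.18 and 1.81 to 2.21 and adjusted p of at most 0.0317. Between BL6 and FVB/N the order of H2-M3 was not settled: the difference was 0.05 with a 95% interval of -0.38 to 0.49, and its sign turned to -0.03 under median centring. H2-M3 has a single probe set, and whether each strain's allele matches its probes equally well was not tested. Only 0.896% of all tested probe sets had a larger absolute difference between BL6 and SV129.

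Without both arrays that held kidney transcripts, H2-M3 was 2.01 higher in BL6 and 2.14 higher in FVB/N than in SV129, with limma adjusted p of 0.00406 and 0.00312. H2-M3 was the only one of 21 member probe sets called between BL6 and SV129, where 2.51% of all tested probe sets were called, 1.35% as higher and 1.16% as lower in BL6. In all, 8 of the 21 (38.1%) had an unadjusted p below 0.05, against 15.9% of all tested probe sets. Without overlap between the strains were 7 of the 21, all higher in BL6, against 21.7% of all tested probe sets, 10.2% higher and 11.5% lower.

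Between FVB/N and SV129 5 of the 21 member probe sets passed the test, and all 5 were higher in FVB/N. Over all tested probe sets 2.89% were called in this comparison, 1.06% as higher and 1.83% as lower in FVB/N. Beside H2-M3, the 5 were the H2-D1 sets 1425545_x_at, 1451784_x_at and 1426324_at and the H2-K1 set 1451931_x_at. All 5 had non-overlapping arrays, as did 6 of the 21 in all, each higher in FVB/N, against 17.8% of all tested probe sets, 7.11% higher and 10.7% lower.

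The H2-D1 set 1426324_at had the widest strain difference of the classical heavy chain sets past the test. Its signal was 3507 and 3536 on the hypoxic FVB/N arrays but 1511 on the normoxic one. In BL6 the hypoxic arrays read 1458 and 1759 and the normoxic one 1726, and in SV129 the hypoxic arrays read 942 and 848 and the normoxic one 1093. The normoxic FVB/N array therefore lay within the BL6 range, while both hypoxic FVB/N arrays stood above every other array. FVB/N exceeded SV129 by 1.46 ± 0.284, or 2.75-fold (limma adjusted p = 0.0292).

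The brighter H2-D1 sets differed less. The leading set 1425545_x_at was 0.52 ± 0.104 higher in FVB/N than in SV129, or 1.44-fold (limma adjusted p = 0.0314), with signals of 17513 to 23478 in FVB/N and 11197 to 17552 in SV129, ranges that overlap on the deposited scale and not after normalization. The second, 1451784_x_at, was 0.46 ± 0.0999 higher, or 1.38-fold (limma adjusted p = 0.0432). The set 1451683_x_at had signals of 4946, 5129 and 3944 in FVB/N and of 2147, 1569 and 3007 in SV129, with no overlap. Its difference of 1.08 ± 0.260 did not pass (limma adjusted p = 0.0658).

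For H2-K1 the strain order depended on the probe set. The leading set 1425336_x_at had signals of 21269, 22283 and 13244 in BL6, 20648, 18950 and 14685 in FVB/N and 17816, 13810 and 12829 in SV129, so the strains overlapped. Its differences were 0.35 ± 0.132 for BL6 over SV129 and 0.24 ± 0.132 for FVB/N over SV129, and neither passed (limma adjusted p = 0.239 and 0.411). The set 1451931_x_at was highest in FVB/N, at signals of 17170, 15573 and 12050, against 10553, 8856 and 8555 in SV129. It exceeded SV129 by 0.60 ± 0.125, or 1.51-fold (limma adjusted p = 0.0395).

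The H2-K1 set 1427746_x_at was highest in BL6, where its signals were 8449, 8520 and 6340, against 4313, 2998 and 5140 in SV129. The difference of 0.94 ± 0.260 did not pass (limma adjusted p = 0.111), although the arrays did not overlap. All H2-K1 sets and 4 of the 5 tested H2-D1 sets carry the suffix that marks probes shared among similar transcripts, so near-identical class I genes cannot be separated in them. By the haplotypes generally listed, alleles of these genes differ between FVB/N and the other strains, and probe sequences were not used here. A strain's transcript level and the match of its allele to the probes therefore cannot be told apart.

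**Figure D2:**
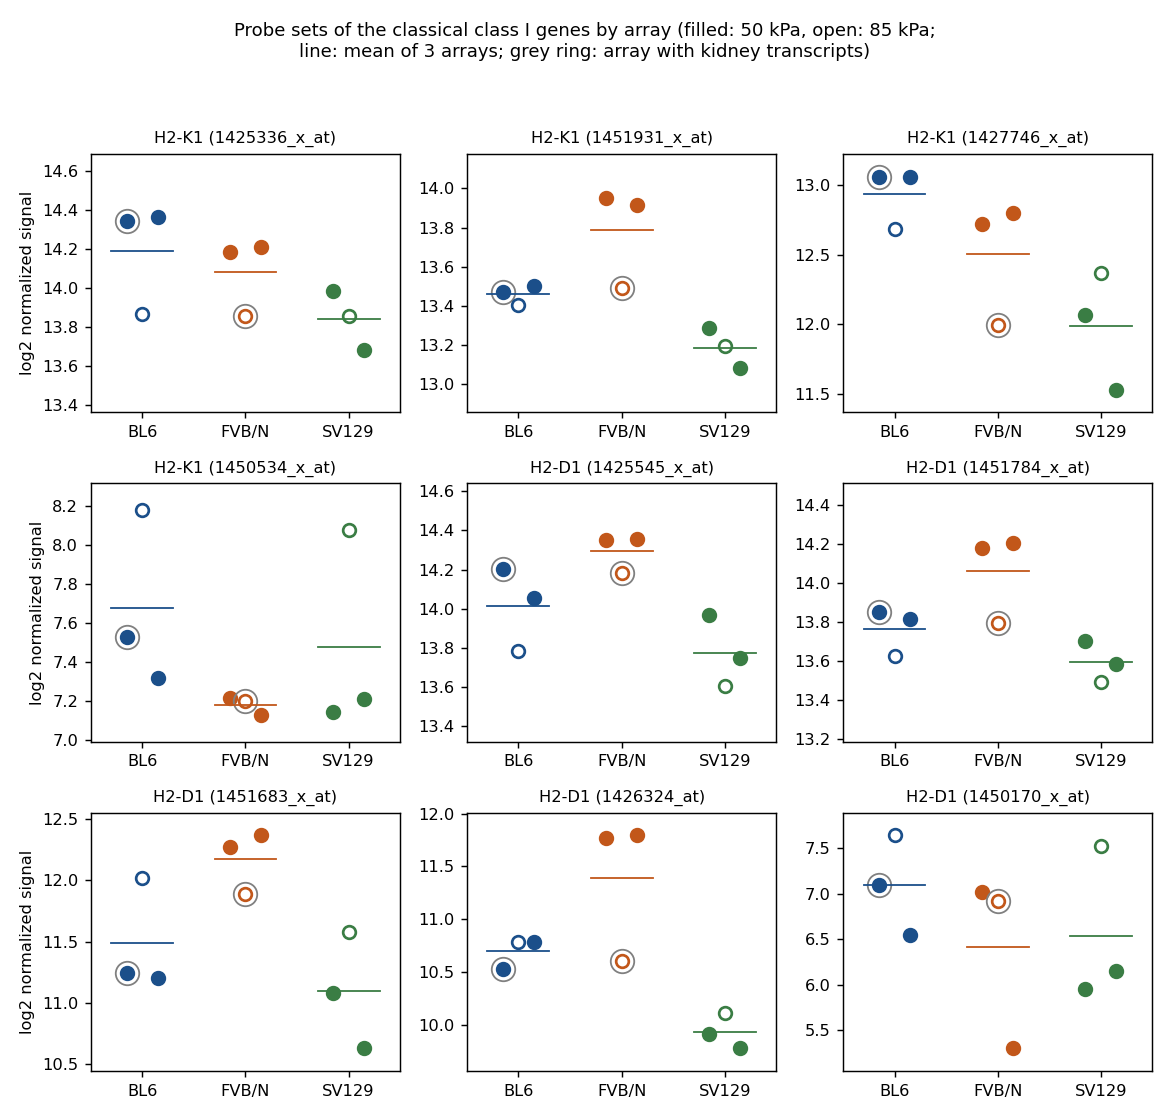
Log2 normalized signal of the 9 tested H2-K1 and H2-D1 probe sets on the 9 arrays, by strain, with filled points for 50 kPa, open points for 85 kPa, a line at the mean of the 3 arrays of a strain and a grey ring round the arrays with kidney transcripts. The set 1426324_at stands highest on the hypoxic FVB/N arrays, while 1427746_x_at stands highest in BL6.

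The calls on the classical heavy chains between FVB/N and SV129 depended on single arrays. The call on 1426324_at was lost without hypoxic BL6 array 5, either hypoxic FVB/N array or either hypoxic SV129 array, at limma adjusted p of 0.0657 to 0.118, over a range of 0.000415 to 0.255 in all settings. The sets 1451784_x_at and 1451931_x_at kept their calls only when the normoxic FVB/N array was the one left out. The leading set 1425545_x_at kept its call without hypoxic BL6 array 2, the normoxic BL6 array or the normoxic FVB/N array, and in none of the other 6 fits of this kind. The sign of all 4 differences was the same in every setting.

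Without both arrays that held kidney transcripts, again 5 member probe sets were called higher in FVB/N than in SV129, 4 of them shared with the fit of 9 arrays. Of all tested probe sets 2.14% were called in this comparison. The set 1426324_at then stood 1.90 higher (limma adjusted p = 0.0012) and 1451683_x_at 1.48 higher (limma adjusted p = 0.00578), while the leading H2-D1 set, at 0.49, missed the threshold (limma adjusted p = 0.0619). In that fit both 1426324_at and 1451683_x_at were also lower in BL6 than in FVB/N, by -1.08 and -1.09 (limma adjusted p = 0.042 and 0.0481), and 1426324_at was 0.83 higher in BL6 than in SV129 (limma adjusted p = 0.0425). With 9 arrays their differences between BL6 and FVB/N were -0.69 ± 0.284 and -0.69 ± 0.260 and did not pass (limma adjusted p = 0.365 and 0.310).

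B2m, the light chain that every class I heavy chain needs, passed no test between strains. The leading set had signals of 18337, 19948 and 18712 in BL6, 20761, 19161 and 16319 in FVB/N and 19076, 18788 and 16055 in SV129. All strains overlapped. The differences between strains were 0.16 for BL6 over FVB/N, 0.19 for BL6 over SV129 and 0.03 for FVB/N over SV129, each with an SE of 0.117, and the first turned to -0.06 under median centring. The second set, 1452428_a_at, had signals of 18321, 19640 and 14980 in BL6 and of 16602, 14562 and 13742 in SV129, and after normalization these strains did not overlap. Its difference of 0.27 for BL6 over SV129 had a 95% interval of 0.04 to 0.51 and did not pass (limma adjusted p = 0.243). The highest bound of any strain difference was 0.45 in the leading set and 0.51 in the second.

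Of the peptide transporter, Tap1 differed between BL6 and FVB/N. Its signal was 1252 and 1216 on the hypoxic and 904 on the normoxic BL6 array, 782 and 676 on the hypoxic and 418 on the normoxic FVB/N array, and 749 and 959 on the hypoxic and 672 on the normoxic SV129 array. All BL6 arrays lay above all FVB/N arrays, and SV129 lay between them with overlap on both sides. BL6 exceeded FVB/N by 0.85 ± 0.169, or 1.80-fold (limma adjusted p = 0.0386), which made Tap1 the only one of 21 member probe sets called in that comparison, where 2.07% of all tested probe sets were called, 1.52% as higher and 0.548% as lower in BL6.

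That call rested on the arrays used. It was kept with either hypoxic SV129 array left out and lost with any of the other 7 arrays left out, at limma adjusted p of 0.0697 to 0.180. Without both arrays that held kidney transcripts the difference was 0.72 (limma adjusted p = 0.278), and over all settings it ran from 0.72 to 0.95 with adjusted p of 0.00466 to 0.278. The dim second set of Tap1, 1448177_at, had signals of 22.9 to 105 and differed by 0.75 ± 0.354 in the same direction (limma adjusted p = 0.464).

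Tap2, the partner of Tap1, had signals of 1203, 1485 and 1306 in BL6, 1131, 1261 and 907 in FVB/N and 1174, 668 and 1222 in SV129. The strains overlapped, and no strain difference passed, the largest being 0.41 ± 0.237 for BL6 over SV129 (limma adjusted p = 0.440). The lowest value came from hypoxic SV129 array 5. Tapbp, which tethers class I to the transporter, was lowest on the normoxic FVB/N array at 3948 and otherwise between 5541 and 8012, and BL6 lay above FVB/N without overlap. Its strain differences did not pass either, at 0.43 ± 0.186 for BL6 over FVB/N and -0.44 ± 0.186 for FVB/N against SV129 (limma adjusted p = 0.403 and 0.281).

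The second Tapbp set, 1450378_at, did not follow the first. Its signal was 748 on hypoxic FVB/N array 2 and 339 on hypoxic SV129 array 5, against 1234 to 2289 on the other 7 arrays. The hypoxic arrays of FVB/N and those of SV129 thus differed from each other on this set, and no strain difference passed (limma adjusted p of at least 0.399).

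Calr, a chaperone for many glycoproteins beside class I, was lower in BL6 than in FVB/N in all 3 of its probe sets, without overlap. The leading set had signals of 7217, 7923 and 6438 in BL6 and 9714, 10450 and 8997 in FVB/N, with SV129 between at 7725, 9059 and 8199. The 3 differences were -0.37 ± 0.127, -0.55 ± 0.128 and -0.60 ± 0.156, and none passed (limma adjusted p = 0.245, 0.0722 and 0.106). Of the 21 member probe sets 6 did not overlap between BL6 and FVB/N, 3 of them higher and 3 lower in BL6, against 14.9% of all tested probe sets, 8.37% higher and 6.49% lower.

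The mean level of Nlrc5 was highest in BL6, then FVB/N, then SV129. Its signal was 411 and 416 on the hypoxic and 384 on the normoxic BL6 array, 383 and 372 on the hypoxic and 188 on the normoxic FVB/N array, and 146 and 198 on the hypoxic and 252 on the normoxic SV129 array. BL6 and SV129 did not overlap. FVB/N overlapped with SV129, and with BL6 only after normalization. The difference of BL6 over SV129, 0.96 ± 0.276 or 1.95-fold, did not pass (limma adjusted p = 0.126), nor did 0.63 ± 0.276 for FVB/N over SV129 (limma adjusted p = 0.306). The difference of BL6 over SV129 did pass when the normoxic FVB/N array was left out.

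**Figure D3:**
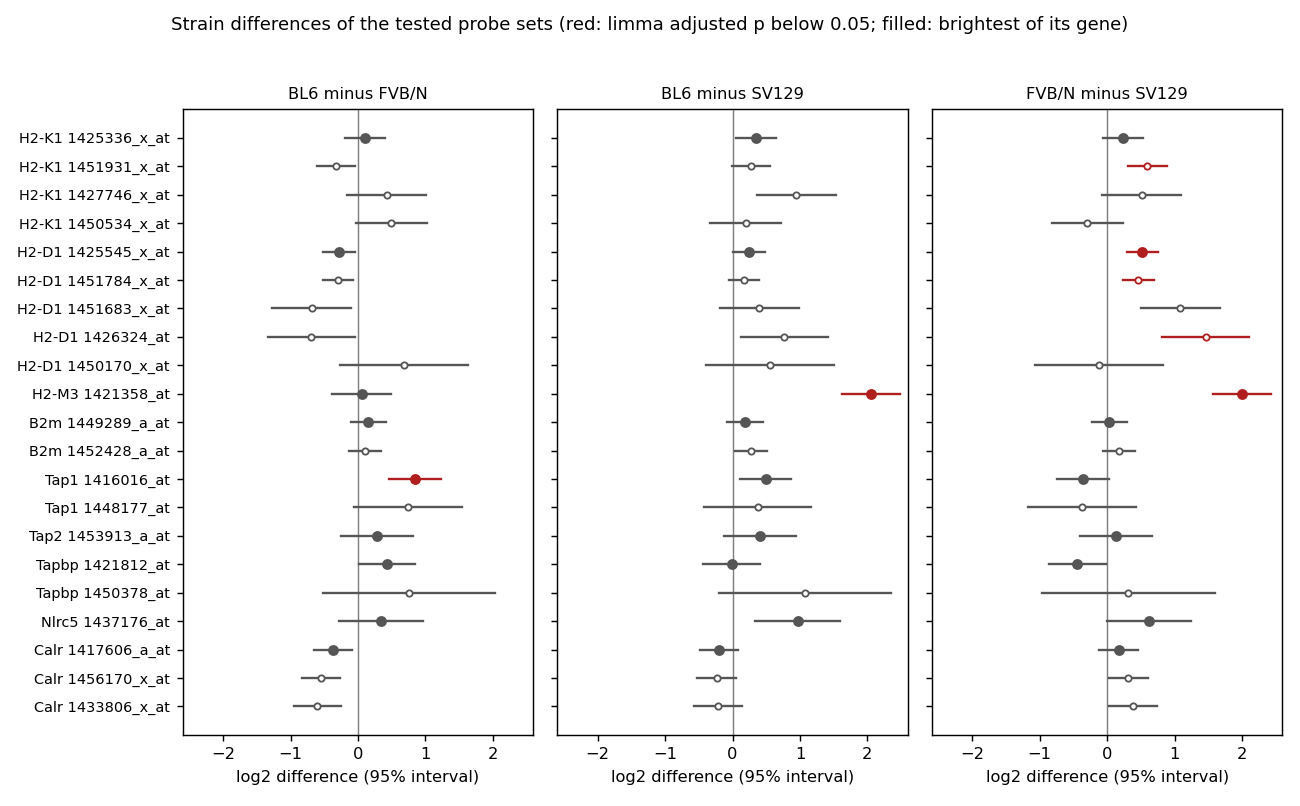
Fitted log2 differences between strains for the 21 tested member probe sets, with 95% intervals, filled for the leading set of a gene and red where the limma adjusted p was below 0.05. H2-M3 stands at 2.05 and 2.00 in both comparisons with SV129, Tap1 at 0.85 for BL6 minus FVB/N, and 4 H2-K1 and H2-D1 sets are called higher in FVB/N than in SV129.

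Of the 21 member probe sets, 13 were above 0 for BL6 minus FVB/N, 17 for BL6 minus SV129 and 16 for FVB/N minus SV129. Their medians were 0.11, 0.35 and 0.31, beside medians over all tested probe sets of -0.01, -0.03 and -0.03. The 3 strain comparisons share arrays, and their values are set side by side only.

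Markers of blood cells were measured on the same arrays, since lymphocytes and myeloid cells express class I at high levels. The mean log2 level of 6 leukocyte markers overlapped between strains, at 11.56 to 11.68 in BL6, 11.17 to 11.88 in FVB/N and 11.40 to 11.60 in SV129. Macrophage and dendritic cell markers (8) were lower in FVB/N, at 8.82 to 9.01, than in BL6, at 9.84 to 10.16, and SV129, at 10.04 to 10.18. B cell markers (4) were at 9.84 to 10.12 in BL6, 8.90 to 10.04 in FVB/N and 9.31 to 9.48 in SV129. Their part in the strain differences was not tested.

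The second question was whether class I genes differed between hypoxic and normoxic lung. Over the 3 strains, 0 of 21 member probe sets passed the limma test, where 3.76% of all tested probe sets did, 1.94% as higher and 1.82% as lower, and 9 of the 21 (42.9%) had an unadjusted p below 0.05, against 22.2% of all. Of the 21, 15 were above 0 and 6 below, and their median was 0.18 beside 0.04 for all tested probe sets. None had non-overlapping arrays, against 10.7% of all tested probe sets, 6.53% higher and 4.12% lower.

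The members closest to the threshold were H2-M3 and Tap1. Hypoxic minus normoxic, H2-M3 was 0.60 ± 0.167, or 1.52-fold (limma adjusted p = 0.0805), and Tap1 was 0.49 ± 0.147 (limma adjusted p = 0.0974). In both genes 6 of 6 hypoxic arrays lay above the normoxic array of their own strain. Both hypoxic arrays of a strain share that normoxic array, so these comparisons are not independent. The Calr set 1456170_x_at also had 6 of 6 above. For H2-M3 the excess was 0.57 and 0.43 in BL6, 0.81 and 0.91 in FVB/N and 0.15 and 0.73 in SV129. For Tap1 it was 0.47 and 0.42 in BL6, 0.80 and 0.57 in FVB/N and 0.17 and 0.51 in SV129.

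Without both arrays that held kidney transcripts, the changes of H2-M3 and Tap1 were 0.44 and 0.37 (limma adjusted p = 0.376 and 0.402). With hypoxic SV129 array 2 left out, H2-M3 was the 1 member probe set that passed, where 5.13% of all tested probe sets did. With the normoxic FVB/N array left out it was the H2-D1 set 1451683_x_at, which fell, where 3.47% of all passed. After normalization all 9 leading probe sets were higher on both hypoxic FVB/N arrays than on that array.

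The brightest H2-D1 sets were also higher on all 6 hypoxic arrays than on the normoxic array of their strain. The leading set had signals of 18922, 17881, 23478, 21150, 17552 and 14522 on hypoxic arrays and of 12595, 17513 and 11197 on normoxic ones, in the order BL6, FVB/N, SV129. Its change was 0.26 ± 0.0899 (limma adjusted p = 0.140), and that of 1451784_x_at was 0.25 ± 0.0865 (limma adjusted p = 0.135). For the leading H2-K1 set 5 of 6 hypoxic arrays lay above, with a change of 0.27 ± 0.114 (limma adjusted p = 0.207).

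Scaling mattered for these bright sets. Under median centring 4 member probe sets passed, namely H2-M3, the leading H2-K1 set and the H2-D1 sets 1425545_x_at and 1451784_x_at, and under the authors' scaling alone both of these H2-D1 sets did. The changes of the leading H2-K1 and H2-D1 sets were 0.57 and 0.56 under median centring, against 0.27 and 0.26 after quantile normalization. Median centring moved the median change of all tested probe sets from 0.04 to 0.11, and the share of higher ones among the called probe sets from 51.7% to 71.3%. The share called over all tested probe sets was 5.33% under median centring and 3.83% under the authors' scaling, against 3.76% after quantile normalization.

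The dim H2-K1 and H2-D1 sets lay below 0, while the dim Tap1 set 1448177_at was at 0.60 (limma adjusted p = 0.290). A brighter H2-D1 set, 1451683_x_at, also lay below 0, at -0.36 ± 0.225 (limma adjusted p = 0.384). The H2-K1 set 1450534_x_at had signals of 287 and 262 on the normoxic BL6 and SV129 arrays and of 122 to 175 on the other 7, a change of -0.56 ± 0.202 (limma adjusted p = 0.148). The H2-D1 set 1450170_x_at had 198 and 176 on the same normoxic arrays and 22.5 to 125 elsewhere, a change of -1.02 ± 0.364 (limma adjusted p = 0.145). Different probe sets assigned to 1 gene therefore did not give 1 direction.

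For B2m the direction depended on the scaling: the change of the leading set was -0.11 ± 0.101 after quantile normalization, 0.27 under median centring and 0.19 under the authors' scaling. The same held for Tap2, at -0.03 ± 0.205, 0.08 and -0.01. Tapbp, at 0.15 ± 0.161, and Nlrc5, at 0.18 ± 0.239, had intervals spanning 0, from -0.21 to 0.51 and from -0.36 to 0.72. Calr was 0.11 ± 0.110 in its leading set and 0.34 ± 0.110 and 0.36 ± 0.135 in the others (limma adjusted p = 0.593, 0.119 and 0.161).

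**Figure D4:**
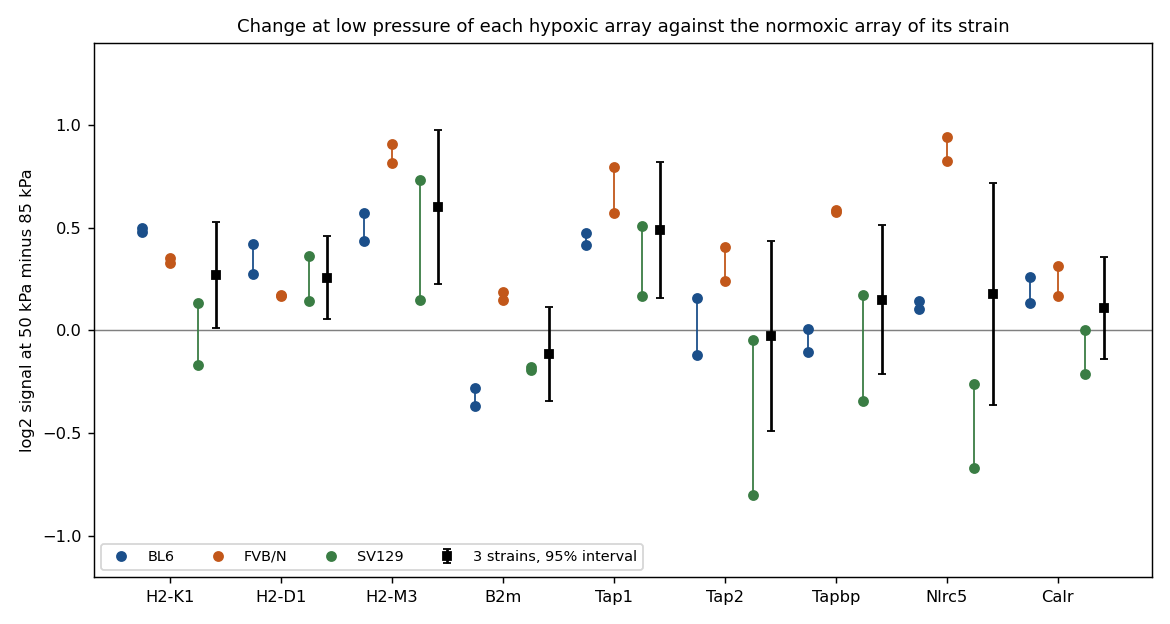
Log2 signal of each hypoxic array minus the normoxic array of its strain for the leading probe set of each gene, by strain, with black squares and bars for the fitted change over the 3 strains and its 95% interval. All 6 points of H2-D1, H2-M3 and Tap1 lie above 0, while B2m, Tap2 and Nlrc5 have strains on both sides of 0.

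The last question was whether the change at low pressure differs between strains. The interaction test gave 0 of 21 member probe sets and 0 of 27022 in all by limma, with 5 of the 21 (23.8%) and 3328 of all (12.3%) at an unadjusted p below 0.05. Among leading sets, Nlrc5 and B2m had unadjusted p of 0.036 and 0.0365, and limma adjusted p of 0.363 and 0.364. Of the other sets, 1426324_at and 1451683_x_at of H2-D1 and 1427746_x_at of H2-K1 had 0.00307, 0.00862 and 0.00948, with limma adjusted p of 0.213, 0.242 and 0.246. The set 1451683_x_at was at 0.44 in FVB/N, -0.80 in BL6 and -0.72 in SV129. The set 1427746_x_at was at 0.76 in FVB/N, 0.38 in BL6 and -0.57 in SV129.

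Within FVB/N 1 of 21 member probe sets was called at low pressure, where 6.8% of all tested probe sets were, 2.95% as higher and 3.85% as lower. This was H2-D1 1426324_at, whose signal rose from 1511 to 3507 and 3536, by 1.18 ± 0.215 or 2.26-fold (limma adjusted p = 0.0302). In BL6 the same set changed by -0.13 ± 0.215 and in SV129 by -0.26 ± 0.215, and neither passed. In BL6 0 of 21 were called by limma, against 0.0148% of all (0% higher, 0.0148% lower), and 7 of the 21 and 3371 of all (12.5%) had an unadjusted p below 0.05. In SV129 0 of 21 and 0 of all tested probe sets were called by limma, and 3 of the 21 and 2047 of all (7.58%) had an unadjusted p below 0.05.

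These fits assume that a strain's single normoxic array varies as hypoxic arrays do, and in FVB/N that array is one of the 2 with kidney transcripts, so the FVB/N call could not be fitted without it. The call was lost with either hypoxic FVB/N array left out and without the intensity trend. With either hypoxic SV129 array left out, 6 member probe sets were called in FVB/N, and calls over all tested probe sets went up to 14.3% and 14.1%. Above 0 were 18 of 21 member probe sets in FVB/N, 15 in BL6 and 7 in SV129. Their medians were 0.34, 0.17 and -0.11, beside 0.17, 0.02 and 0.01 for all tested probe sets.

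Markers of T and natural killer cells, only some of which read class I, were higher on hypoxic arrays in FVB/N and lower in SV129. Their mean log2 level (7 markers) was 9.12 and 9.33 on the hypoxic FVB/N arrays and 8.41 on the normoxic one, and 8.03 and 7.99 on the hypoxic SV129 arrays and 8.53 on the normoxic one. In BL6 the hypoxic arrays were at 8.47 and 8.68 and the normoxic one at 8.56. Other marker lists were also lower on the normoxic FVB/N array than on both hypoxic FVB/N arrays: B cell markers were at 8.90 against 9.70 and 10.04, leukocyte markers at 11.17 against 11.62 and 11.88, endothelial markers (7) at 11.64 against 12.62 and 12.36, and lung epithelial markers at 13.87 against 14.19 and 14.30. Macrophage and dendritic cell markers were at 9.01 against 8.96 and 8.82. Their part in the result was not tested.

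Other genes of the pathway came from lists of 77 genes, of which 60 have a probe set of their own and 50 were tested. Across strains, 1 of 50 was higher at low pressure, 1 was lower and 48 did not pass. Of all tested probe sets 1.94% were called as higher and 1.82% as lower, shares near those of the 50. An unadjusted limma p below 0.05 was found for 12 of the 50 (24%), against 22.2% of all tested probe sets. In each of the 3 strain comparisons 0 of 50 passed by limma, while 4, 10 and 9 (8%, 20% and 18%) had an unadjusted p below 0.05 for BL6 against FVB/N, BL6 against SV129 and FVB/N against SV129. Over all tested probe sets these shares were 11.9%, 15.9% and 16.3%.

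Of 10 tested genes for peptide supply 1 rose. Npepps, a cytosolic aminopeptidase, had signals of 1499 and 1453 in hypoxic BL6, 2382 and 1814 in hypoxic FVB/N and 1473 and 1655 in hypoxic SV129. On the normoxic arrays of these strains it had 831, 704 and 795. It was higher by 1.08 ± 0.162, or 2.12-fold (limma adjusted p = 0.0166), passed in 6 of 9 fits with 1 array left out, and missed the threshold without both arrays with kidney transcripts, at 0.89 (limma adjusted p = 0.0719). The immunoproteasome subunits Psmb8, Psmb9 and Psmb10, which cut peptides suited to class I, were at 0.25, 0.31 and 0.29 and did not pass (limma adjusted p = 0.498, 0.462 and 0.364).

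Of 9 folding and loading chaperones 1 fell. Hsp90b1, a chaperone of the endoplasmic reticulum, had signals of 4027 to 5650 on the 6 hypoxic arrays and of 6437 to 7505 on the 3 normoxic ones, with no overlap. It fell by 0.68 ± 0.150 on the log2 scale (limma adjusted p = 0.0443), which held in 2 of 9 fits with 1 array left out, and it missed the threshold without both arrays with kidney transcripts, at -0.88 (limma adjusted p = 0.0502). Canx and Pdia3, which take part in the folding and loading of class I, were at -0.42 and -0.15 and did not pass (limma adjusted p = 0.134 and 0.628).

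None of 13 transcription factors of class I genes, 6 interferon receptor and signalling genes (Ifnar1 and Ifnar2 of type I interferon among them), 5 class I receptors or 7 other class I and class I-like heavy chains passed across strains. Their medians were 0.20, 0.10, -0.13 and 0.11, beside 0.04 for all tested probe sets. Within FVB/N 5 of the 50 rose and none fell, where 2.95% of all tested probe sets rose and 3.85% fell, and these 5 are named after their values were seen: Npepps, the class I-like H2-T24, Irf1 and Stat2, which act in interferon responses, and Cd8b1, a chain of the CD8 co-receptor. The adjusted p-values of these 5 were 0.0276, 0.0299, 0.0336, 0.0474 and 0.0497 by limma. All 5 calls were lost with either hypoxic FVB/N array left out, and without the intensity trend. For the 50 genes the median change in FVB/N was 0.45, beside 0.17 for all tested probe sets. These 5 calls and this median rest on the normoxic FVB/N array, which held kidney, brown fat and muscle transcripts. They could not be fitted without it, and its part in them was not tested.

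The genes most alike in pattern were taken by Pearson correlation of log2 level over the 9 arrays, among 12886 other genes, as a description only, since all points share the arrays with their strains and conditions. For H2-K1 these were Cox7a2l (r = 0.97), Lemd2 (r = 0.94) and Ncald (r = 0.94). For B2m they were Ctnnb1 (r = 0.97), Ykt6 (r = 0.95) and Zfp606 (r = 0.95). For Tap1 they were Dynlrb1 (r = 0.97), Osgep (r = 0.96) and Borcs8 (r = 0.95).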

How the data were processed

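RNA of snap-frozen right lung was isolated on Qiagen columns and labelled with biotin, per the labels' protocols. The authors deposited linear intensity values of each probe set. They are scaled to a common mean after trimming, as the values show, and the software and probe sequences are not given in the sources used here. Another 12 arrays mentioned in the design text were not analysed here.

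Genes were named from the platform's annotation, of which 34945 probe sets list 1 symbol, 932 several and 9160 none. After 64 control probe sets were left out, log2(signal + 16) values were quantile normalized and the dimmest 40% by mean were dropped. Fold changes on this scale understate the change of dim probe sets. limma 3.58.1 in R 4.3.3 was fitted with an intensity trend, as strain plus condition over 9 arrays (5 residual degrees of freedom), and with 6 groups (3 residual degrees of freedom) for each strain and the interaction. The threshold was a Benjamini-Hochberg adjusted p of 0.05. The scripts were tested on simulated data.

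Alternatives were other scalings, pseudocounts of 1 and 64, filters of none and 60%, variance models, array weights, each array and both kidney-bearing arrays left out, 1 probe set per gene, the array number as a block, and the 6 hypoxic arrays alone. All members were named by every probe set, other pathway genes where called across strains or between strains, and the 3 most alike genes for H2-K1, B2m and Tap1. Members, lists and tests were chosen with earlier results of these data known. Figures were drawn with matplotlib 3.10.9.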

Additional observations from a re-analysis of the deposited data

Results flagged for a closer look

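The change at low pressure ran in opposite directions in different strains for the leading probe sets of 3 members, in that both hypoxic arrays of one strain lay above their normoxic array and both of another lay below. These contrasts were not tested one by one, and the interaction test over strains did not pass for any of them. For B2m the change was 0.17 in FVB/N, -0.32 in BL6 and -0.18 in SV129, so FVB/N differed from BL6 by 0.49 and from SV129 by 0.35 on the log2 scale. For Tap2 it was 0.32 in FVB/N and -0.42 in SV129, a gap of 0.75. For Nlrc5, the class I transactivator, it was 0.88 in FVB/N and 0.12 in BL6 but -0.47 in SV129, gaps of 1.35 and 0.59. The second B2m set, 1452428_a_at, was at 0.13 in FVB/N and 0.14 in BL6, so it did not show the opposition between these strains, and at -0.16 in SV129. Among the other probe sets, H2-K1 1427746_x_at and H2-D1 1451683_x_at and 1426324_at also had both hypoxic arrays above in FVB/N and both below in SV129, and the H2-D1 sets both below in BL6. The limma adjusted p of the interaction was 0.364 for B2m, 0.764 for Tap2 and 0.363 for Nlrc5. The FVB/N values rest on the 1 normoxic array with kidney, brown fat and muscle transcripts, and the part of these in the gaps was not tested.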

How the results depend on the processing

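Over 24 alternative settings, 855 values of single probe sets were recomputed: 758 kept their direction and their side of the threshold, 52 lost and 15 gained the threshold, and 30 turned sign. With 1 array left out, counts of called member probe sets ran from 0 to 1 for hypoxia across strains, 0 to 2 for BL6 against FVB/N, 1 to 4 for BL6 against SV129, 1 to 6 for FVB/N against SV129 and 0 to 6 for hypoxia in FVB/N. Over all probe sets, calls for hypoxia across strains fell from 1016 to 3, 13 and 32 without the normoxic SV129, the normoxic BL6 and hypoxic BL6 array 5. Median centring gave 4 members for hypoxia and 0 for BL6 against FVB/N, and the authors' scaling gave 2 for hypoxia. Over all tested probe sets these fits called 5.33%, 2.06% and 3.83%. With no filter 2 were called for FVB/N against SV129, where 1.52% of all probe sets were called. Without the trend 0 were called for BL6 against FVB/N, 2 for FVB/N against SV129 and 0 for hypoxia in FVB/N. Array weights gave 3 for hypoxia, 8, 5 and 8 for BL6 against FVB/N, BL6 against SV129 and FVB/N against SV129, and 2 for hypoxia in FVB/N. Without both arrays with kidney transcripts 2 were called for BL6 against FVB/N and 2 for BL6 against SV129. In that fit 1.24% and 2.05% of all tested probe sets were called. With 1 probe set per gene 2 were called for FVB/N against SV129, since fewer member sets were tested, beside 2.84% of all probe sets in that fit. The 6 hypoxic arrays alone gave 2 each for BL6 against FVB/N and BL6 against SV129, beside 1.42% and 1.55% of all tested probe sets. Over all tested probe sets array weights called 6.92% for hypoxia and 8.14%, 4.78% and 3.4% for the 3 strain comparisons in that order. With the settings used in the sections above these shares were 3.76%, 2.07%, 2.51% and 2.89%. Without the trend 2.09% were called for BL6 against FVB/N and 2.82% for FVB/N against SV129. Calls for hypoxia in FVB/N over all tested probe sets rose with array weights and fell without the trend. Unless stated, the cause was not tested.

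The labels do not say what an array number stands for, and the check did not pair the samples. Deviations of the arrays numbered 2 correlated at -0.04, -0.03 and -0.19 between strains. In groups of 2 the other hypoxic arrays, numbered 5 in BL6 and SV129 and 6 in FVB/N, mirror them. The normoxic arrays, all numbered 1, have no deviation within their groups. With the number as a fixed replicate block 0 members were called for BL6 against FVB/N and 1 for FVB/N against SV129. Of all tested probe sets 0.692% and 0.67% were called with this block, against 2.07% and 2.89% without it. As a random block, with a consensus correlation of -0.24, hypoxia across strains gave 9 members (7 higher, 2 lower). Over all tested probe sets it gave 5586, or 20.7%, against 3.76% without the block. Each array number occurs in only 1 condition, so the block cannot be told apart from pressure. No conclusion is drawn from this fit.

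Signs turned as follows, none of them past the threshold on 9 arrays. Under median centring the hypoxia change of B2m was 0.27 and of Tap2 0.077, and BL6 minus FVB/N was -0.038 for H2-K1, -0.032 for H2-M3 and -0.055 for B2m. Under the authors' scaling the B2m change was 0.19. Array weights gave 0.13 for the Tap2 change and -0.070 for H2-M3 between BL6 and FVB/N. Without both arrays with kidney transcripts the changes of Tapbp and Nlrc5 were -0.045 and -0.21, BL6 minus FVB/N was -0.13 for H2-M3 and -0.070 for Nlrc5, and BL6 minus SV129 was 0.016 for Tapbp. The fixed block gave -0.038 for B2m and -0.054 for Tap2 between FVB/N and SV129, and the 6 hypoxic arrays alone gave -0.067 for H2-M3 and -0.0085 for B2m between BL6 and FVB/N. With 1 array left out, hypoxia changes ran from -0.20 to 0.17 for Tap2, -0.067 to 0.27 for Tapbp and -0.17 to 0.50 for Nlrc5. In such fits BL6 minus FVB/N ran from -0.077 to 0.13 for H2-M3 and -0.013 to 0.50 for Nlrc5, BL6 minus SV129 from -0.20 to 0.10 for Tapbp, and FVB/N minus SV129 from -0.029 to 0.17 for B2m and -0.14 to 0.33 for Tap2.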

Other observations

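A further 5 probe sets list a member together with other genes and were kept out of every member count above, so no gene is named from them. They are part of the 45037 probe sets, and those not too dim are among the 27022 tested. The probe set 1451593_at had signals of 5579 and 5352 on the hypoxic FVB/N arrays and 2323 on the normoxic one, against 5.74 to 99.3 on the other 6 arrays. Since those 6 readings are dim, no fold or test is given. The set 1449556_at was 1.19 higher in BL6 than in FVB/N (limma adjusted p = 0.0151), with signals of 8741, 8946 and 7057 in BL6 and 4231, 4384 and 2604 in FVB/N. These 2 were singled out after their values were seen.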
